A study of Caenorhabditis elegans with 2 samples.

Results

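RNA polymerase, TFIID and Mediator genes were taken as the protein-coding genes of the WBcel235 annotation whose symbol starts with rpb-, rpoa-, rpac-, rpc-, taf- or mdt- followed by a number, together with ama-1. They numbered 59 of 19973 nuclear protein-coding genes, of which 22 encode polymerase subunits, 17 TFIID subunits and 20 Mediator subunits. The experiment was chromatin immunoprecipitation with sequencing against GFP-tagged DPL-1 in whole Caenorhabditis elegans L1 larvae, the first larval stage, of mixed sex and unknown age. There was 1 group, with 2 biological replicates according to the labels, and no compared condition. Both replicates came from strain OP105, which combines unc119(ed3) with wgIs105, an insertion that carries dpl-1 fused to TY1, EGFP and FLAG tags together with unc119. The labels do not say what drives the transgene or in which cells the tagged protein is made, and whole larvae give 1 signal over all their cells. A control named in the labels was not analysed here. The peak lists hold no read counts, and sequencing depth is therefore unknown.

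DPL-1, the DP protein of C. elegans, pairs with E2F transcription factors and is a subunit of DREAM, a complex known to repress cell-cycle genes. RNA polymerases I, II and III make ribosomal RNA, messenger RNA, and transfer and other small RNAs. TFIID, built of TBP and the TAF proteins, recognises core promoters, and Mediator relays activator signals to RNA polymerase II. Mediator is divided into head, middle, tail and kinase modules, an assignment taken here from yeast and human.

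To show the bound DNA itself, the stretch within 75 bases of the summit is given for the strongest bound gene of each family and for rpb-12, one of the members with an E2F motif near its summit. The sequences were read from the RefSeq genome of WBcel235 (ce11) and run 5' to 3' on the strand of the named gene, and each stops where an exon begins. Capitals mark E2F motifs (TTTCCCGC, TTTCGCGC, TTTGCCGC or TTTGGCGC) and CHR-type motifs (TTTGAA or TTCGAA), both searched on both strands. The rpb-11 stretch is chrII:14059892-14060042 on the plus strand, between protein-coding genes, and holds 3 CHR-type motifs. The mdt-22 stretch is chrII:10301081-10301215 on the plus strand, with the summit in an intron of the divergent gene clpp-1, and holds 1 CHR-type and 1 E2F motif. The taf-6.2 stretch, chrIV:3694776-3694926 on the minus strand, holds 1 CHR-type motif, and the rpb-12 stretch, chrIV:9147059-9147209 on the minus strand, holds 1 motif of each kind. Both lie between protein-coding genes.
rpb-11: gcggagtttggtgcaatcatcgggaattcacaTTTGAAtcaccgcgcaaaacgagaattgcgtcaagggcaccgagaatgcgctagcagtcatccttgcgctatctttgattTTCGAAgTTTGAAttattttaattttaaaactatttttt
mdt-22: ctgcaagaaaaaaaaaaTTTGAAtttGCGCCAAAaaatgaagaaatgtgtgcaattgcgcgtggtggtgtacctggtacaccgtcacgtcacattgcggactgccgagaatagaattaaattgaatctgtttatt
taf-6.2: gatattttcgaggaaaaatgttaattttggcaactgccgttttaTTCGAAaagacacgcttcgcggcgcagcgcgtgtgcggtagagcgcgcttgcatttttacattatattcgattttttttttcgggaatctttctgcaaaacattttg
rpb-12: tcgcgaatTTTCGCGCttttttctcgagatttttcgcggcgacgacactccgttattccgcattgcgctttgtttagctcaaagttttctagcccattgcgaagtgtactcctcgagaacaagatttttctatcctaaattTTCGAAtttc

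A gene was counted as bound when the summit of a peak in the authors' IDR list fell between 1000 bp before and 200 bp after any of its transcript 5' ends. The IDR list, thresholded by the irreproducible discovery rate, which scores how well peak ranks repeat between replicates, held 2797 peaks. Of the 59 members, 27 (45.8%, exact 95% interval 32.7 to 59.2) were bound, against 2839 of 19914 other protein-coding genes (14.3%). The background over all protein-coding genes was also 14.3%. Polymerase genes were bound in 13 of 22 cases (59.1%, 36.4 to 79.3), TFIID genes in 7 of 17 (41.2%, 18.4 to 67.1) and Mediator genes in 7 of 20 (35.0%, 15.4 to 59.2). The intervals of the 3 families overlap, they cover counting error only, and the difference between families was not tested.

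**Figure D1:**
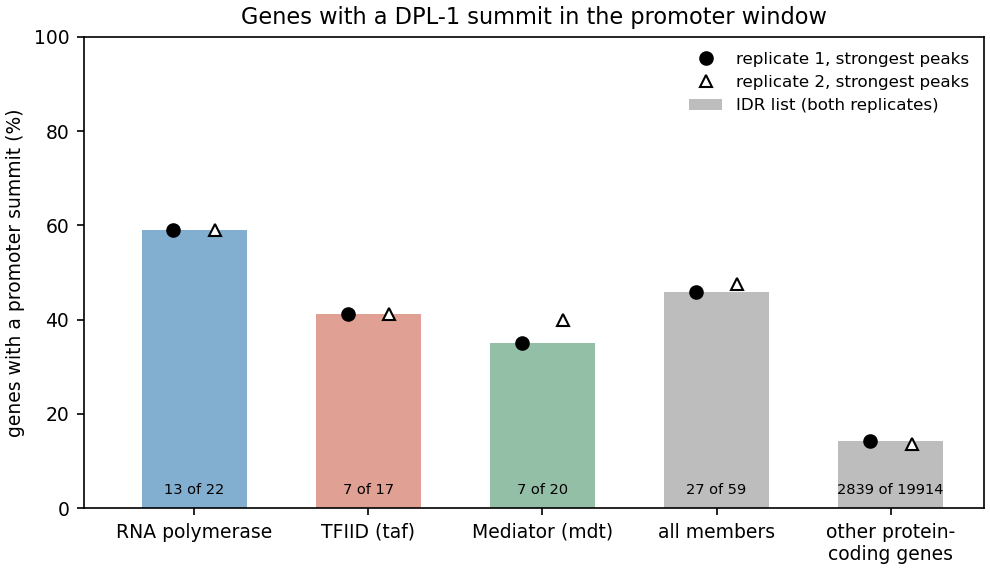
Percent of genes with a DPL-1 summit in the promoter window, for each family, all 59 members and the other protein-coding genes. Bars give the IDR list, filled circles the strongest peaks of replicate 1 and open triangles those of replicate 2. The replicates lie at 45.8% and 47.5% for all members, and at 14.3% and 13.7% for the other genes.

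The replicates gave nearly the same counts. When the 2797 strongest peaks of either replicate were taken alone, 27 members were bound in replicate 1 and 28 in replicate 2, a mean of 46.6% ± 1.2 (SD, n = 2). The background over all genes was 14.4% in replicate 1 and 13.8% in replicate 2. Polymerase and TFIID counts were 13 and 7 in both replicates, and Mediator counts were 7 in replicate 1 and 8 in replicate 2, or 37.5% ± 3.54 (SD, n = 2). All 27 bound members were bound in both replicates, as were 86.1% of all bound genes, counts that the choice of IDR peaks favours. The extra gene in replicate 2 was mdt-8, a head subunit gene, with a weak peak in its window (signal 13.8, rank 2598). In replicate 1 the best peak in the mdt-8 window ranked 6040. The IDR summit nearest to mdt-8 was another peak, 1219 bp upstream and outside the window.

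Among polymerase genes, the subunits that all 3 enzymes share in yeast and human were bound at 5 of 5 (100%, 47.8 to 100). The 17 remaining polymerase genes were bound at 8 (47.1%, 23.0 to 72.2). The intervals overlap, and the difference was not tested. With each summit given to the nearest gene only, the counts were 4 of 5 and 7 of 17. The genes lost were rpb-10 and rpb-7, whose summits lay nearer to Y37E3.1 and Y54E10BR.2 in that order. Among the 5 shared by all 3 enzymes, rpb-8 was the strongest. It had a signal of 216 (rank 314) in replicate 1 and 150 (rank 229) in replicate 2, and 367 (rank 279) in the IDR list. Its summit, III:4918151, lay 143 bp upstream of the 5' end. Signals are in the units of the authors' caller, whose scale is not given, so they rank peaks within a list and are not compared between lists. The IDR signals of the other 4 were 152 at rpb-6, 149 at rpb-12, 82.5 at rpb-10 and 51.8 at rpb-5, around a median of 71.5 over all IDR peaks. Only rpb-5 lay below that median. In the replicates, rpb-6 ranked 853 in replicate 1 and 559 in replicate 2, and rpb-12 ranked 739 and 667 in the same order. The ranks of rpb-10 were 1289 and 1136, and those of rpb-5 were 1973 and 1393.

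Genes for subunits of RNA polymerase II alone were bound at 4 of 7. The peak at rpb-11, whose product pairs with that of rpb-3 in the assembly platform of the enzyme, was the strongest of all members. It had a signal of 794 (rank 15) in replicate 1 and 397 (rank 32) in replicate 2, and ranked 19 in the IDR list with a signal of 1186, 118 bp upstream of the 5' end. Its partner gene rpb-3 had a signal of 89.4 (rank 745) in replicate 1 and 58.5 (rank 692) in replicate 2. The 2 subunits of this pair were thus both bound, with ranks far apart in either replicate. The largest subunit gene, ama-1, whose product holds the repeated C-terminal tail, had a signal of 55.5 (rank 1132) in replicate 1 and 38.4 (rank 1044) in replicate 2, at a summit 568 bp upstream. At rpb-7, a subunit of the stalk, the summit fell 28 bp downstream of the 5' end, in a coding exon, and its peak ranked 1082 in replicate 1 and 970 in replicate 2 (IDR signal 102). The unbound genes were rpb-2, the second largest subunit, rpb-4, the partner of rpb-7 in the stalk, and rpb-9.

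Genes for subunits found in polymerases I and III but not II fall into groups of 2 to 4, of which 4 in all were bound. For RNA polymerase I, 2 of 4 were bound. The largest subunit gene rpoa-1 had the weakest peak of any bound member in the IDR list (signal 37.4) and in replicate 1 (22.5, rank 2405). In replicate 2 its signal was 15.7 (rank 2319), and those of rpc-1 (14.8) and taf-7.2 (15.5) were lower. The rpoa-12 peak had 32.1 (rank 1795) in replicate 1 and 18.6 (rank 2021) in replicate 2. Neither rpoa-2, the second largest subunit, nor rpoa-49 was bound. For RNA polymerase III, 1 of 4 was bound, namely rpc-1, its largest subunit gene, and not rpc-2, rpc-11 or rpc-25. Of the 2 genes shared by polymerases I and III, rpac-19, which takes the place of rpb-11 in those enzymes, was bound and rpac-40 was not. The rpac-19 peak had a signal of 68.0 (rank 940) in replicate 1 and 27.3 (rank 1431) in replicate 2.

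**Figure D2:**
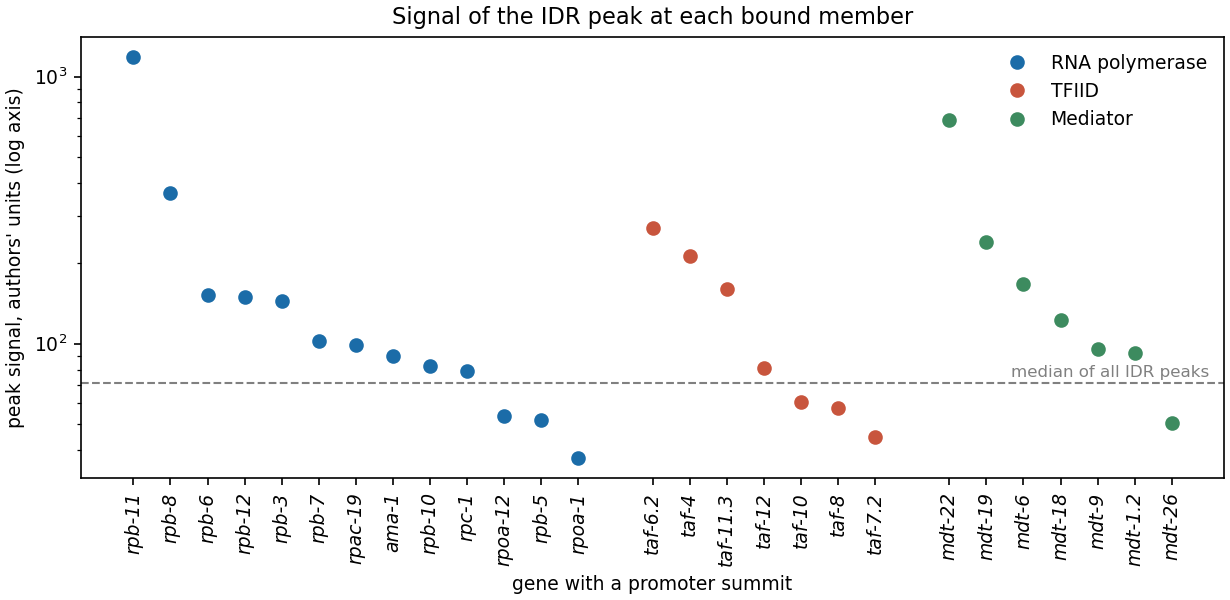
Signal of the IDR peak at each of the 27 bound members, in the authors' units on a log axis, ordered within family. The dashed line is the median of all IDR peaks, 71.5. The highest points are rpb-11 (1186), mdt-22 (687) and rpb-8 (367). Of the 27 points, 20 (74.1%) lie above the line, against 61.7% of other bound genes.

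TFIID genes had the lowest median signal of the 3 families, 81.3, against 98.5 for polymerase and 123 for Mediator genes, on peaks that numbered 7, 13 and 7. The bound genes were taf-4, taf-6.2, taf-7.2, taf-8, taf-10, taf-11.3 and taf-12. The strongest peak stood at taf-6.2, one of a pair of TAF6 genes, with a signal of 162 (rank 428) in replicate 1 and 112 (rank 357) in replicate 2, 118 bp upstream. At taf-4 the signal was 117 (rank 577) in replicate 1 and 93.2 (rank 450) in replicate 2. The peak at taf-12 was weaker, with 47.5 (rank 1307) in replicate 1 and 46.6 (rank 869) in replicate 2, and lay 893 bp upstream. Still weaker peaks stood at taf-8 and taf-10. The taf-8 peak had 30 (rank 1905) in replicate 1 and 28.6 (rank 1380) in replicate 2, and the taf-10 peak 34.6 (rank 1710) and 31.1 (rank 1293) in that order. Both lay below the IDR median, at 57.5 and 60.7 in the IDR list. The peak of taf-11.3 had an IDR signal of 160 and ranked 732 in replicate 1 and 626 in replicate 2, and that of taf-7.2 had 44.6 and ranked 1840 and 2348.

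The 10 TFIID genes with no summit included taf-1, the largest TAF and the scaffold for TBP, taf-2, a TAF that contacts the initiator in human, and taf-5, a WD40-repeat TAF. The others were taf-3, taf-6.1, taf-7.1, taf-9, taf-11.1, taf-11.2 and taf-13. Where a TAF has several genes, 1 was bound: taf-6.2 of 2 genes, taf-7.2 of 2 and taf-11.3 of 3. In all 3 cases the summit lay nearer to a divergent neighbour, Y37E11AL.3, elpc-2 or urm-1, and was 84, 118 and 107 bp upstream of those genes, against 118, 136 and 123 bp for the TAF genes.

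Mediator genes with an mdt symbol were bound at 3 of 7 in the head (mdt-6, mdt-18, mdt-22), 2 of 6 in the middle (mdt-1.2, mdt-9), 0 of 3 in the tail (mdt-15, mdt-27, mdt-29) and 2 of 4 not assigned here (mdt-19, mdt-26). With 3 genes in the tail, 0 bound allows a share of up to 70.8%. The strongest was mdt-22, a head subunit gene, with a signal of 418 (rank 103) in replicate 1 and 277 (rank 78) in replicate 2. Next stood mdt-19, with 152 (rank 453) in replicate 1 and 92.0 (rank 455) in replicate 2, followed by mdt-6 with 106 (rank 636) in replicate 1 and 63.0 (rank 643) in replicate 2. The summits of mdt-19 (777 bp upstream), mdt-6 (908 bp) and mdt-9 (121 bp) lay nearer to another gene, apb-1, Y57E12AL.1 and Y62E10A.23 in that order. These peaks cannot be assigned to the Mediator genes alone. The ranks of mdt-22, mdt-19 and mdt-6 were alike in both replicates, while those of mdt-18 and mdt-1.2 were lower in replicate 2: mdt-18 had 103 (rank 655) in replicate 1 and 23.2 (rank 1663) in replicate 2, and mdt-1.2 had 68.2 (rank 936) and 20.1 (rank 1893) in the same order. The IDR signal at mdt-9 was 95.4, with ranks of 1025 in replicate 1 and 1185 in replicate 2, and at mdt-26 it was 50.5, with ranks of 1756 and 1812.

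Several Mediator subunits carry other symbols, and 6 of these 9 genes were bound (66.7%, 29.9 to 92.5). They were sop-3, a MED1 gene (IDR signal 434), cic-1, the cyclin of the kinase module (428), rgr-1, the MED14 gene (165), sur-2, the MED23 gene (61.0), cdk-8, the kinase (42.8), and dpy-22, the MED12 gene (32.2). The last of these was not among the strongest peaks of replicate 1. No summit lay at let-49, lin-25 or let-19. Mediator genes under either symbol came to 13 of 29 (44.8%, 26.4 to 64.3), so that the place of Mediator below TFIID rests on which symbols are counted.

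Other genes of the transcription machinery showed a wide spread of shares. General transcription factors other than TAFs were bound at 6 of 20 (30%, 11.9 to 54.3), among them ttb-1, the TFIIB gene (signal 391), and cdk-7, the kinase of TFIIH (171), and not tbp-1, the TBP gene. Elongation factors were bound at 13 of 18 (72.2%, 46.5 to 90.3), led by pafo-1, the PAF1 gene (signal 1072, rank 26), and emb-5, the SPT6 gene (552). This count was 10 of 18 in replicate 2 alone. The median IDR signal of the 13 was 52.4, and 5 of them lay above the median of 71.5 over all IDR peaks. Integrator and SNAPc genes, which serve small nuclear RNAs, were bound at 9 of 18 (50%, 26 to 74), with ints-4 the strongest (786).

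Of the 32 members with no summit, 21 stood in an operon-like position, beginning within 500 bp of, or overlapping, the 3' end of another gene on the same strand. Operon-like position held for 13 of 20 Mediator genes (65.0%), 10 of 22 polymerase genes (45.5%) and 4 of 17 TFIID genes (23.5%), against 20.1% of other protein-coding genes. Members in such positions were bound at 6 of 27 (22.2%), against 9.91% of other operon-like genes, and the remaining members at 21 of 32 (65.6%), against 15.3% of other genes. In the remaining members the shares were 9 of 12 polymerase genes (75%), 7 of 13 TFIID genes (53.8%) and 5 of 7 Mediator genes (71.4%). Operon-like position was read from distance and strand alone, and whether these genes are transcribed together was not tested. Among operon-like polymerase genes, the bound rpac-19, rpb-8, rpoa-12 and rpb-5 began 211, 268, 479 and 485 bp after the gene upstream. The unbound ones began 46 to 122 bp after it. The 500 bp limit was not varied, so these shares may depend on it.

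**Figure D3:**
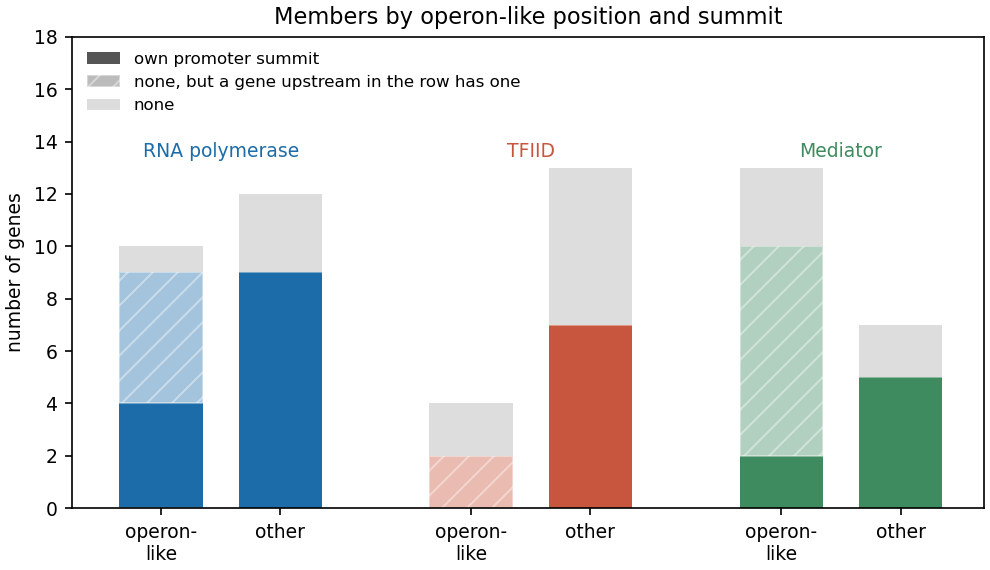
Number of genes of each family by position, with genes in an operon-like position left and all others right. Solid colour marks genes with a summit in their promoter window, which may be shared with a neighbour. Hatching marks unbound genes with a bound gene upstream in the same row, and grey genes with neither. The Mediator operon-like bar holds 2, 8 and 3 genes of these kinds. The 2 are mdt-6 and mdt-9, whose summits also lie in the window of the gene upstream and nearer to another gene.

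A bound gene stood upstream in the same row for 15 of the 21 unbound operon-like members (71.4%), against 33.6% of the 3599 other such genes. The strongest of these upstream peaks stood at wip-1, upstream of the head subunit gene mdt-11 (signal 401, rank 237, 2916 bp from mdt-11), and at F28F8.9, upstream of mdt-28 (378). Others included the peak of Y62F5A.12 upstream of mdt-8 (199), of pdr-1 upstream of mdt-29 (179), of algn-5 upstream of rpac-40 (159), of mlc-5 upstream of taf-9 (146) and of mrps-18C upstream of rpb-2 (58.7). Such rows also led to rpb-9, rpc-2, rpoa-49, taf-13, mdt-10, mdt-17, mdt-30 and mdt-31. No bound gene stood upstream of rpc-25, taf-2, taf-6.1, mdt-4, mdt-15 or mdt-27. The 11 unbound members outside operon-like positions were rpb-4, rpc-11, rpoa-2, taf-1, taf-3, taf-5, taf-7.1, taf-11.1, taf-11.2, mdt-20 and mdt-21.

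Weak peaks were present at part of the unbound members. In the authors' pooled relaxed list of 23883 peaks, 15 of the 32 had a summit in the window, with signals between 8.72 at rpoa-49 and 20.9 at rpb-4 (median 13.7). The IDR peaks are the 2797 strongest of this pooled list and carry its signals, so a peak at an unbound member is weaker than every IDR peak by construction. Among polymerase genes these were rpb-4, rpb-9 (18.3), rpoa-2 (16.8), rpc-11 (14.1), rpac-40 (8.97) and rpoa-49. Among TFIID genes they were taf-5 (13.9), taf-6.1 (13.7), taf-11.1 (13), taf-1 (12.2) and taf-3 (10.4), and among Mediator genes mdt-8 (15.4), mdt-28 (14.5), mdt-4 (12.1) and mdt-31 (8.96). The other 17 unbound members had none, and the same share over all unbound genes was not counted. On that list 42 of 59 members were bound (71.2%), against a background of 41.2%: 19 polymerase, 12 TFIID and 11 Mediator genes. At the edge of the window, mdt-6 (908 bp) and taf-12 (893 bp) lay inside, and rpoa-49 (1209 bp) and mdt-8 (1219 bp) outside.

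Summits at bound members lay close to the 5' end, at a median of 143 bp upstream, against 219 bp for other bound genes. The medians were 143 bp for polymerase, 157 bp for TFIID and 128 bp for Mediator genes. Of the 27 summits, 16 fell within 200 bp upstream, 2 lay downstream (rpb-7 and mdt-26) and 4 lay over 500 bp upstream (ama-1, taf-12, mdt-19 and mdt-6). Among 2839 other bound genes these counts were 1180, 123 and 497. The mdt-18 summit was upstream only of an internal 5' end, and lay 1278 bp downstream of the outermost 1. Between protein-coding genes lay 22 of 27, a count that was not made for other peaks. The median peak width was 316 bp, as over all IDR peaks.

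**Figure D4:**
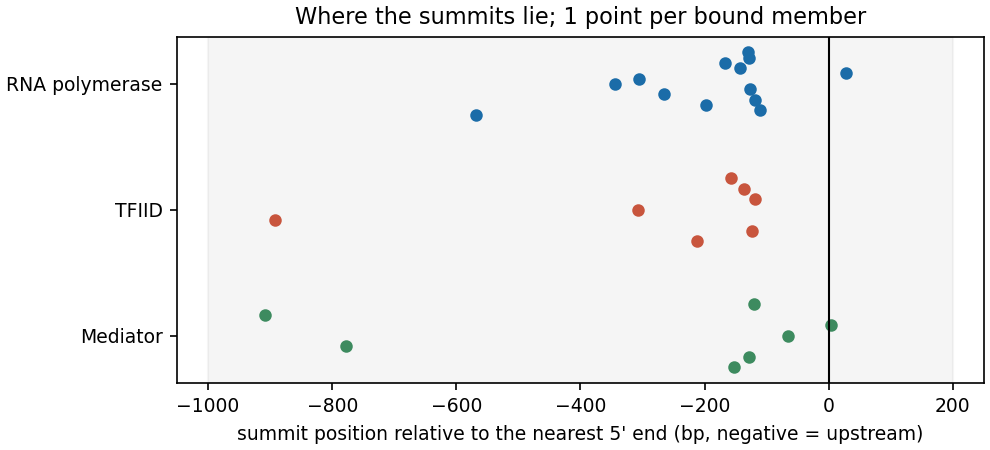
Position of each of the 27 summits relative to the nearest 5' end of its gene, in bp with negative values upstream, by family. The grey band is the window from 1000 bp upstream to 200 bp downstream. Most points lie just left of the 5' end, and mdt-6 (908 bp) and taf-12 (893 bp) lie farthest upstream.

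Most member peaks also lay in the window of another gene, so they cannot be assigned to the member alone. This held for 20 of 27 (74.1%), against 57.2% of other bound genes. Shared peaks numbered 10 of 13 in polymerase, 4 of 7 in TFIID and 6 of 7 in Mediator genes. A divergent neighbour, one that starts on the opposite side of the summit, was present at 12 of 27 (44.4%), against 50.4% of other bound genes. Examples were pas-4 beside rpb-3, aly-2 beside rpb-12, Y37E3.1 beside rpb-10, C42D4.18 beside rpc-1, pqn-59 beside taf-4, clpp-1 beside mdt-22, uri-1 beside mdt-18, apb-1 beside mdt-19 and Y62E10A.20 beside mdt-9. The windows of daf-10 (at rpb-12), moag-4 (at rpb-10), and Y62E10A.23 and lsm-3 (at mdt-9) held these summits as well. Peaks shared without a divergent neighbour so defined were those of rpb-11 with W01G7.4, rpb-8 with rars-1, rpb-6 with dohh-1 and rpb-7 with Y54E10BR.2. The others were rpac-19 with tbg-1, rpoa-12 with pas-1, mdt-26 with ift-43, and mdt-6 with Y57E12AL.1 and Y57E12AL.6. Of these neighbours, Y54E10BR.2, ift-43 and Y57E12AL.1 lie on the strand opposite to the member. They were not counted as divergent because the summit lay just inside rpb-7, mdt-26 or, for mdt-6, Y57E12AL.1. When each summit went only to the nearest gene, 19 of 59 members were bound (32.2%), against 10.1% of other genes. Peaks of ama-1, rpb-5, rpoa-1, taf-8, taf-10, taf-12 and mdt-1.2 lay in the window of no other protein-coding gene.

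The member peaks were taken from the IDR list, which was made from both replicates, so part of the match between replicates is built in by that choice. All 27 peaks had a summit within 100 bp in both replicates' lists, with a median of 18 bp between the replicates' summits. Across the 27 peaks, which are not independent replicates, the ranks had a Spearman rho of 0.788, lower than the 0.846 across 2683 matched IDR peaks. At rpb-11, rpc-1, mdt-18 and mdt-1.2 the rank in replicate 2 was more than 2 times that in replicate 1 (14.8% of member peaks, against 6.11% of all IDR peaks). For rpc-1 the signal was 61.9 (rank 1028) in replicate 1 and 14.8 (rank 2461) in replicate 2. For rpb-11 both ranks stayed within the top 32. No member peak differed as much the other way, as 101 of the 2683 matched IDR peaks did. Smaller differences in rank went both ways among the member peaks.

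**Figure D5:**
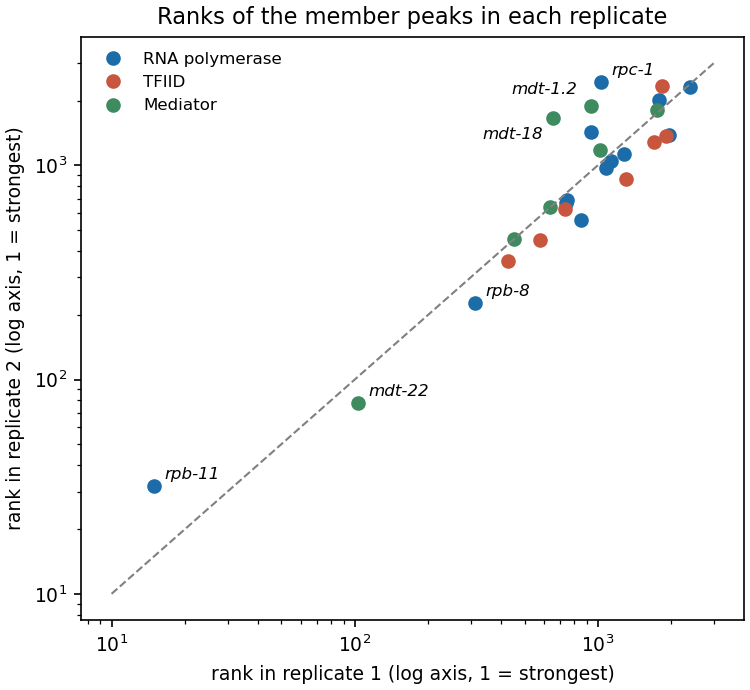
Rank of each of the 27 member peaks in replicate 1 (x axis) and replicate 2 (y axis), both on log axes with 1 the strongest, coloured by family. The dashed line marks equal ranks. The points of rpc-1, mdt-18 and mdt-1.2 lie above the line, at ranks 2461, 1663 and 1893 in replicate 2. Other points lie on both sides of the line.

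Few member summits had an E2F motif near them, a share that could not be told from that of all IDR peaks. Within 100 bp of the summit, 2 of 27 member peaks (7.41%, 0.910 to 24.3) held an 8-letter E2F motif, against 11.9% of all IDR peaks and 12.1% of those in promoter windows. The 2 were mdt-22, with TTTGGCGC on the other strand 40 bp from its summit, and rpb-12, with TTTCGCGC 64 bp away, both shown above. The interval of the members holds the shares of all IDR peaks. CHR-type motifs stood at 21 of 27 (77.8%, 57.7 to 91.4), against 52.1% of all IDR peaks, 56.6% of those in promoter windows and 82.4% of the 279 strongest. By family, this motif was near 13 of 13 polymerase summits, 3 of 7 TFIID summits and 5 of 7 Mediator summits. The CHR-type motif is short and frequent, and in the 201 bases at the 5' end, CHR-type motifs were found in 66.7% of bound and 56.2% of unbound members, against 60.5% of all bound and 55.4% of all unbound genes. The presence of a motif was not tested as a cause of binding.

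Members on the X chromosome were taf-3, taf-7.1, taf-11.1 and mdt-1.2, of which mdt-1.2 was bound, while 6.63% of all genes on X were bound. On the autosomes the counts were 6 of 11, 6 of 13, 6 of 14, 5 of 8 and 3 of 9 on I, II, III, IV and V, where 21.7%, 14.9%, 24.3%, 13.9% and 8.97% of all genes were bound.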

How the data were processed

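The authors deposited, on ce11, relaxed peak lists of replicate 1, of replicate 2 and of both pooled, and an IDR list that their listing derives from these. No aligner, peak caller, threshold or read depth is named (not given in the sources used here), so no interval covers sequencing depth. The deposited signal value of a peak was used only to rank peaks within a list. Deposited coordinates were read as 0-based and are given 1-based.

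Genes were the 19973 nuclear protein-coding genes of Ensembl release 115 for WBcel235, and the sequence of that build was read from RefSeq. All 59 members had ATG at an annotated start codon. The members and gene lists were chosen with earlier results of these data known. The rule for names took all members, the neighbours that share a peak, and for sequences the strongest bound member of each family and members with an E2F motif near the summit. Bound genes upstream of an unbound member, and genes of the other lists, were named after their values were seen, and subunit classes come from textbook knowledge. Of the names asked for in the other lists, gtf-2A1, tfis-1, ints-10 and ints-12 were not matched.

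A gene was counted as bound when an IDR summit fell between 1000 bp before and 200 bp after any of its transcript 5' ends. For the spread, the top 2797 peaks of replicate 1 and of replicate 2 were treated likewise. Summits within 100 bp were matched. A gene was called operon-like when it began within 500 bp of, or overlapping, the 3' end of another protein-coding gene on its strand. Brackets after shares are exact 95% Clopper-Pearson intervals over genes or peaks, which treat neighbouring genes as independent. No test was run, because there is 1 group of 2 replicates. The window, nearest-gene, operon-like and motif steps were tested on simulated data with known answers. Python 3.11.15 and SciPy 1.17.1 were used. Alternatives covered the window, the peak list, the assignment of summits, the replicates and the motif.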

Additional observations from a re-analysis of the deposited data

How the results depend on the processing

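No paired analysis was possible because there is 1 group. The share over all members moved more with the window and list than with the replicate. With a window of 500 bp upstream it was 39.0% for all members, 54.5% for polymerase, 35.3% for TFIID and 25% for Mediator, against 12% of all genes. With each summit given to the nearest gene only the shares were 32.2%, 50%, 23.5% and 20% in that order, against 10.2%. With only peaks above the median signal they were 33.9%, 45.5%, 23.5% and 30%, against 8.88%. With the pooled relaxed list they were 71.2%, 86.4%, 70.6% and 55.0%, against 41.2%. Without operon-like genes they were 65.6%, 75%, 53.8% and 71.4%, against 15.4%. Leaving out a replicate gave 45.8% to 47.5% for all members, 59.1% for polymerase, 41.2% for TFIID and 35.0% to 40% for Mediator, against 13.8% to 14.4%. With Mediator genes of other symbols added, an alternative chosen after seeing the data, the Mediator share was 44.8%. The order of polymerase first, TFIID next and Mediator last changed with above-median peaks, without operon-like genes and with other symbols. Protein-coding transcripts alone changed none of these shares. At a 50 bp matching distance 26 of 27 peaks (96.3%) were matched in both replicates. The E2F share was 22.2% with 7 letters, against 23.1% of all IDR peaks, and 3.70% within 50 bp, against 7.87%. Depth is unknown, and with 59 genes and shared peaks the intervals are wide.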

Other observations

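Subunit roles gave a pattern that was chosen after its values were seen. The largest subunit of each polymerase, ama-1, rpoa-1 and rpc-1, was bound in 3 of 3 cases, and the second largest, rpb-2, rpoa-2 and rpc-2, in 0 of 3. Among the unbound genes of these, rpb-2 and rpc-2 stood in operon-like rows behind a bound gene and rpoa-2 did not. Of the 4 alpha-like subunit genes, rpb-3, rpb-11 and rpac-19 were bound and rpac-40 was not, and rpac-40 stood behind the bound gene algn-5. These counts are too small for a comparison.

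Among other genes, snpc-4, which encodes a subunit of the complex that recognises small nuclear RNA promoters, was bound with a signal of 58.1, and the Mediator gene mdt-31 overlaps its end by 16 bp on the same strand. The TBP-like gene tlf-1 shared 1 peak (signal 42.8) with the Mediator kinase gene cdk-8.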
